A study of Mus musculus with 28 samples.

Results

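Cyp17a1 and 6 further steroidogenic genes were examined in mouse liver, chosen as the array probes that carry their names. They are 7 of 120 gene probes on a focused 2-colour array for drug, sterol and bile acid metabolism. Cyp17a1, Cyp11a1, Cyp11b2, Cyp21a1, Star and Nr5a1 are named in the platform's annotation. The other member is named only in the scanner files; it is counted in every test and is not named here.

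The question of the series was how antivirals of the acyclic nucleoside phosphonate class bear on cytochrome P450 genes. All animals were female C57BL/6 mice aged 8 to 10 weeks, and each array set liver RNA of treated mice against 1 pool of liver RNA from saline-injected mice. The adefovir dipivoxil group had 5 animals and the tenofovir disoproxil group 5, with 25 mg/kg injected intraperitoneally on 3 days and the animals killed on day 4. Each of these animals was hybridised on 2 arrays, once with its own RNA in Cy3 and once in Cy5. The positive control group had 4 animals given 60 mg/kg phenobarbital, with 1 dose of 80 mg/kg β-naphthoflavone on day 2. These animals had 1 array each, with treated RNA in Cy3 only. A further 4 arrays carried pooled RNA of positive-control animals, 2 in each dye orientation. Adefovir and tenofovir are nucleotide analogs given here as ester prodrugs, and tenofovir carries a methyl group in its side chain that adefovir lacks. Phenobarbital and β-naphthoflavone are classical inducers of liver P450 genes. The saline pool is a single sample, so every comparison with saline leaves out the spread among saline mice. That pool holds RNA of 10 mice by the sample descriptions and of 5 by the treatment protocol.

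Steroid hormones are made from cholesterol in a chain of steps that later branches. Star, the steroidogenic acute regulatory protein, brings cholesterol to the inner mitochondrial membrane, and Cyp11a1 there cuts off its side chain to give pregnenolone. Cyp17a1 hydroxylates pregnenolone and progesterone and then cleaves them towards androgens, Cyp21a1 hydroxylates progesterone towards corticosteroids, and Cyp11b2 finishes aldosterone. Nr5a1, steroidogenic factor, is the nuclear receptor that switches these genes on in adrenal cortex and gonad. The full set of steps belongs to those organs, while RNA of Cyp17a1 is also known from mouse liver.

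Across the series the treated channel had 30 to 88 of 120 probes above background per array, counting a probe where the median intensity of most of its 3 spots lay over 2 background SDs above the local background. The saline channel had 9 to 29 probes above background on the 4 single positive-control arrays and 33 to 78 on all others. The file headers mark the Cy5 channel of those 4 arrays, which is the saline channel, as bad. Of 11 hepatocyte markers on the array, 10 were above background on most arrays, with 7 to 11 on each. Of 6 markers of adrenal or gonadal cells on the array, none was above background on most arrays, with 0 to 2 on each. Those 6 are the members other than Cyp17a1. Markers of Kupffer cells, endothelium, stellate cells, cholangiocytes and blood had no probe on the array.

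Cyp17a1 was the only one of the 7 members with a signal above background on most arrays. It was above background in the treated channel on 22 of 28 arrays and in the saline channel on 24, in at least 1 channel on 27 and in both on 19. With adefovir RNA in Cy3 the treated signal stood 6.27 to 18 background SDs above background and the saline signal 3.13 to 10.7, so both channels passed on 5 of 5 arrays. With adefovir RNA in Cy5 the treated signal stood at 0.915 to 8.36 background SDs and passed on 4 of 5 arrays. With tenofovir RNA in Cy3 it stood at 8.30 to 61.4 and passed on 5 of 5 arrays. With tenofovir RNA in Cy5 it stood at 0.703 to 5.45 and passed on 3 of 5 arrays. The saline channel passed on all 20 antiviral arrays. Cyp17a1 was thus read in both channels on all antiviral arrays with treated RNA in Cy3, and its weak readings lay in the treated channel in Cy5.

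In the positive control the reading of Cyp17a1 was one-sided. The treated channel passed on 3 of 4 single arrays, at 1.73 to 11.7 background SDs. The saline channel passed on 0 of 4, at 0.226 to 0.759 background SDs. The local background SD of the saline channel at this probe was 313 to 426 on these arrays, against 6.49 to 52.4 on the antiviral arrays. On the pool arrays the saline channel passed on 4 of 4, and the treated channel on 2 of 2 in Cy3 and 0 of 2 in Cy5.

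**Figure D1:**
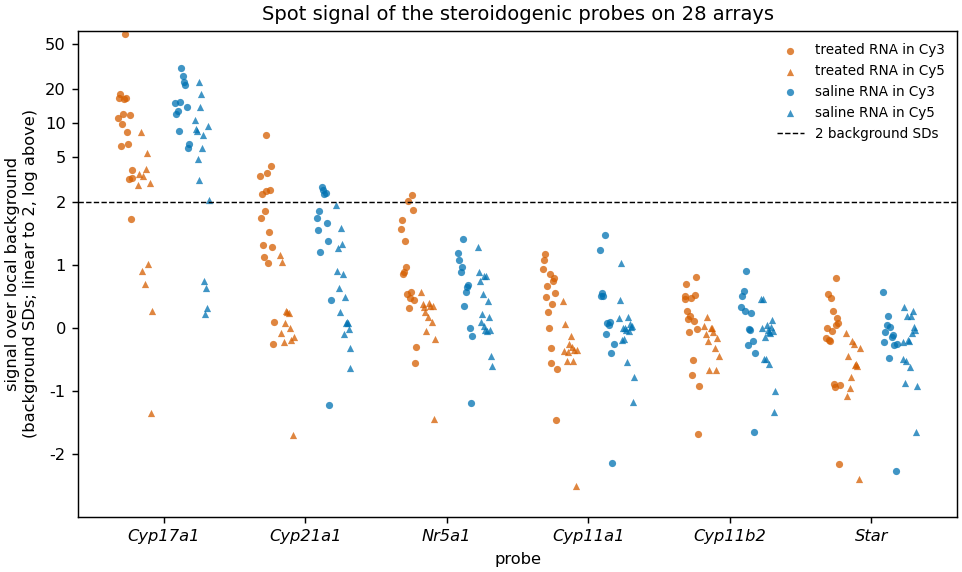
Signal of 6 steroidogenic probes above the local background on 28 arrays, in background SDs on the y axis, for treated RNA (orange) and saline RNA (blue) in Cy3 (circles) and Cy5 (triangles). The dashed line marks 2 background SDs, and the y axis is linear up to it and logarithmic above. Most points of Cyp17a1 lie above the line, those of Cyp21a1 pass it only in Cy3, 2 of Nr5a1 pass it, and none of Cyp11a1, Cyp11b2 or Star does.

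Of the genes before Cyp17a1 in the chain, Star and Cyp11a1 were above background on 0 of 28 arrays in both channels. Among the other enzymes, Cyp11b2 was likewise above background on 0 of 28 arrays, as was the unnamed member. Cyp21a1 passed in the treated channel on 7 arrays and in the saline channel on 4, never in both on 1 array. All 11 of these readings were in Cy3 and 0 were in Cy5, so its detection moved with the dye. Its highest signal, 7.93 background SDs, was that of tenofovir animal 3 in Cy3. Mouse Cyp21a1 has a close pseudogene copy, and the probe sequence was not used here, so its signal is uncertain in that respect. Nr5a1 passed in the treated channel on 2 arrays, 1 of a tenofovir animal and 1 of a positive-control animal, both in Cy3, and in the saline channel on 0. The highest Nr5a1 signal was 2.34 background SDs, close to the limit of 2. Cyp17a1 was thus read in both channels on most antiviral arrays, on 0 of the 4 single positive-control arrays and on 2 of the 4 pool arrays, and no other member was read in both channels on any array.

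Ratios below are log2 of treated over saline after within-array loess normalization, and a value below 0 means less Cyp17a1 RNA in the treated liver than in the saline pool. In bulk liver RNA, fewer cells of a type and less RNA per cell cannot be told apart. Calls rest on limma with 1 mean per group over 14 animals and Benjamini-Hochberg adjustment at 0.05 over 120 probes.

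Cyp17a1 was lower than in the saline pool over the 10 antiviral animals as 1 set, and the 2 antivirals were not told apart. Adefovir animals 1 to 5 had log2 ratios of -0.68, -0.25, 0.17, -0.68 and -0.24. Of these 5 animals, 4 lay below 0 and animal 3 lay above it. Tenofovir animals 1 to 5 had log2 ratios of -0.86, -0.29, -0.08, -0.94 and -0.74. All 5 tenofovir animals lay below 0, and their range overlapped that of the adefovir animals.

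The adefovir mean was -0.34 ± 0.36 (SD, n = 5), with a standard error of 0.152 and a 95% interval of -0.66 to -0.01. It did not pass the test (limma, p = 0.0440, adjusted p = 0.391), where 2 of 120 probes, or 1.67%, were called and none was a member. The tenofovir mean was -0.58 ± 0.38 (SD, n = 5), with a 95% interval of -0.91 to -0.26. It had the third smallest p-value of all probes in that comparison and did not pass after adjustment (limma, p = 0.00176, adjusted p = 0.0703). There too 2 of 120 probes, or 1.67%, were called, none of them a member. The tenofovir value lay on the edge of the threshold: it passed in 10 of 16 alternative treatments of the data and when adefovir animal 3, tenofovir animal 3 or positive-control animal 2 was left out, with values of -0.58, -0.71 and -0.58. Adefovir passed in none of 16 alternatives, and its value was -0.16 and -0.18 with centring on calibration and luciferase spots.

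Over both antivirals the mean was -0.46 (standard error 0.108, 95% interval -0.69 to -0.23), a 1.38-fold lower level, and 9 of 10 animals lay below 0. In adefovir animal 4 and tenofovir animals 1 and 4 the treated signal in Cy5 was not above background. It stood at 0.915, 0.703 and 1.02 background SDs, so the fold rests in part on such readings. The mean over both antivirals passed the test (limma, adjusted p = 0.0221). In this comparison 10 of 120 probes, or 8.33%, were called, and Cyp17a1 was 1 of them and the only one of the 7 members. It had the third lowest ratio of all 120 probes, whose median was 0.01. The call was lost when adefovir animal 1 or 4 or tenofovir animal 1, 4 or 5 was left out, with log2 ratios of -0.42 in 4 of these cases and -0.44 without tenofovir animal 5 (adjusted p of 0.0526 to 0.0786). It was also lost with centring on the calibration spots, at -0.30, where the median of all probes moved to 0.24.

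The 2 antivirals were given at the same dose on the same days, and they were compared as 1 pair. Adefovir minus tenofovir was 0.25 for Cyp17a1, with a 95% interval of -0.21 to 0.71 (limma, adjusted p = 0.983). No probe was called in this comparison, that is 0 of 120 or 0%, by limma, and 3 of 120 had an unadjusted p under 0.05. The interval spans a range from a lower to a higher level with adefovir, so the data do not show that the compounds act alike or apart on this gene.

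After loess, both dye orientations of an animal mostly gave the same sign. The 2 arrays had the same sign in 9 of 10 antiviral animals, with tenofovir animal 3 as the exception at -0.19 in Cy3 and 0.04 in Cy5. Before loess, relative to the median of gene spots, signs also differed in adefovir animals 2, 3 and 5. Their values were 0.22, 0.55 and 0.53 in Cy3 and -0.61, -0.18 and -0.67 in Cy5, so agreement in sign depended on loess. The differences that follow are after loess. The median difference between the 2 arrays of an animal was 0.192 in absolute log2 ratio. It was widest in tenofovir animal 1, with -1.31 in Cy3 and -0.42 in Cy5, a difference of 0.884 in size. In the Cy5 array of that animal the treated signal of Cyp17a1 was not above background.

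**Figure D2:**
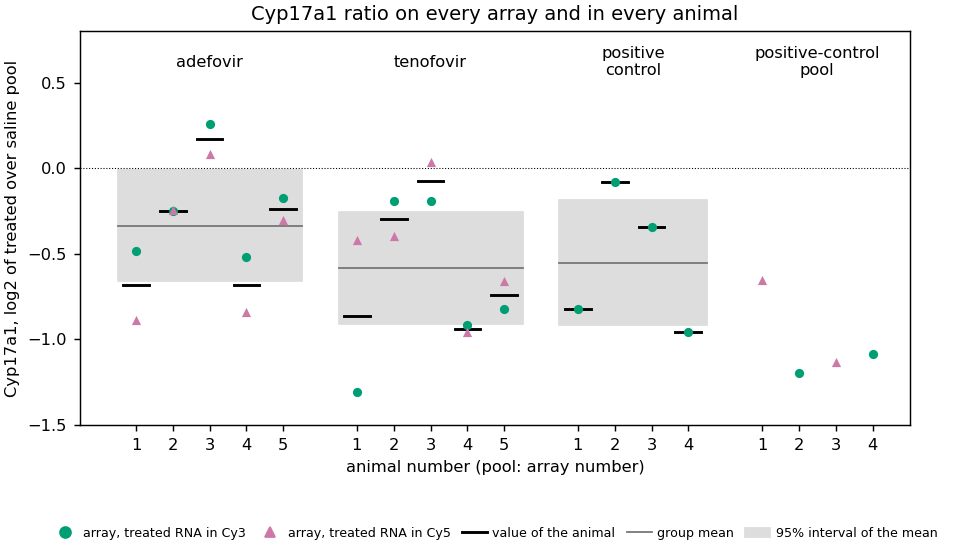
Log2 ratio of Cyp17a1, treated over saline pool, on the y axis for each animal number on the x axis (array number for the pool), with circles for arrays with treated RNA in Cy3 and triangles for Cy5. Black bars are the value of each animal, grey lines and bands the group mean and its 95% interval from limma. In the tenofovir and positive-control groups every animal lies below 0, adefovir animal 3 lies above it, and the 4 pool arrays lie between -1.20 and -0.65.

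In the positive control Cyp17a1 was called lower, on readings whose saline side was below background. The ratios were to the same single saline pool as those of the antivirals, so the calls are not independent of one another. Animals 1 to 4 had log2 ratios of -0.82, -0.08, -0.35 and -0.96, all below 0 and overlapping both antiviral groups. The mean was -0.55 ± 0.41 (SD, n = 4), with a 95% interval of -0.92 to -0.19, and it passed the test (limma, adjusted p = 0.0181). This comparison called 50 of 120 probes, or 41.7%, so a call was common in it, and 2 of the 7 members were called. Since the saline channel was not above background on any of the 4 arrays, the ratio is no measured fold, and no fold is given. The normalized treated level was 0.230 times the lowest that the saline channel could read. On the log2 scale the levels were 8.01 treated and 8.56 saline, both under that limit of 10.1. The value of 0.230 is thus only a lower bound on treated over saline and sets no direction. The call was lost without positive-control animal 1 (log2 ratio -0.46, limma, adjusted p = 0.0884) or animal 4 (-0.42, adjusted p = 0.117). Centring on calibration spots, luciferase spots or the genes Actb, Gapdh and Ppia gave -1.12, -1.10 and -1.27. The median of all probes was then -0.59, -0.57 and -0.74. These centrings shift all probes of an array by the same amount. A value relative to a median of probes is therefore the same under each by construction. Cyp17a1 was -0.53 relative to the median of all probes. Relative to the median of the 67 probes above background on most arrays it was -0.78. With median centring in place of loess and no dye correction, a setting chosen after seeing the data, it was -0.17 (adjusted p = 0.390).

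The pooled RNA of positive-control animals, read with a saline channel above background, had ratios below 0 on every array. The 2 pool arrays with treated RNA in Cy3 gave -1.20 and -1.08, and the 2 in Cy5 gave -0.65 and -1.13. Both orientations lay below 0, and 3 of 4 arrays lay below the lowest single animal. On the 2 arrays in Cy5 the treated channel was not above background, so their ratios are not measured levels. The 2 arrays in Cy3 were above background in both channels, and their mean after loess was -1.14, a 2.20-fold lower level. On 1 of them, pool array 4, the saline signal stood at 2.12 background SDs, close to the limit of 2. Relative to the array median before loess, pool arrays 2 and 4 were at -1.06 and -0.45, so the size of that fold depended on loess. The pool arrays share 1 pool of treated RNA and entered no test.

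The positive control did not differ from either antiviral in Cyp17a1 by the test. Positive control minus adefovir was -0.22 (95% interval -0.70 to 0.27, limma, adjusted p = 0.476) in a comparison that called 32.5% of all probes. Positive control minus tenofovir was 0.03 (95% interval -0.46 to 0.52, limma, adjusted p = 0.906) in one that called 31.7%. None of the 7 members was called in either. Both differences changed with the scaling of the arrays. With centring on calibration spots, luciferase spots or the genes Actb, Gapdh and Ppia, positive control minus adefovir was -0.96, -0.92 and -0.90 and passed the test, while positive control minus tenofovir turned to -0.68, -0.59 and -0.58. Under these 3 scalings the median of all probes in the comparison with adefovir moved to -0.74, -0.70 and -0.69, and in that with tenofovir to -0.89, -0.81 and -0.80. Relative to that median Cyp17a1 was -0.21 in the first comparison and 0.22 in the second, the same under each scaling by construction. Relative to the median of the 67 probes above background on most arrays it was -0.50 and -0.23, so the sign of the second turned with the probes it was set against.

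**Figure D3:**
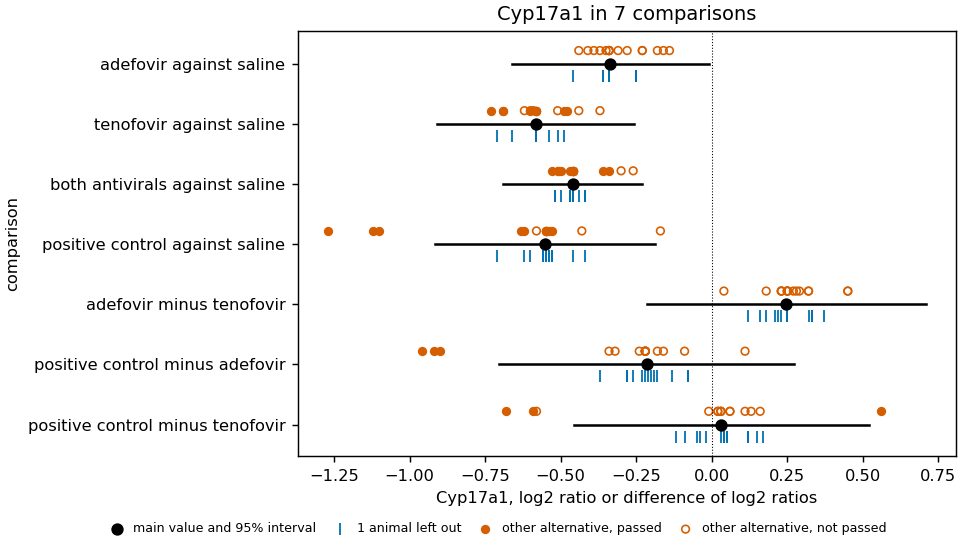
Log2 ratio of Cyp17a1, or difference of 2 log2 ratios, on the x axis in 7 comparisons on the y axis, with the value reported and its 95% interval in black. Blue ticks leave out 1 animal, and orange circles are other alternatives, filled where the limma test passed. All values against saline lie below 0, adefovir minus tenofovir lies above 0 throughout, and positive control minus tenofovir lies on both sides.

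The ratio of Cyp17a1 depended on how each array was centred. Before any centring it ranged from -3.08 to 1.93 over the antiviral arrays and was below 0 on 16 of all 28 arrays. On the same arrays the median of all gene spots ranged from -1.60 to 2.09, and Cyp17a1 lay below its own array's median on 22 of 28. After loess it lay below 0 on 25 of 28. The 2 dye orientations differed before loess. Relative to the array median Cyp17a1 was -0.16 to 0.55 with adefovir RNA in Cy3 and -1.21 to -0.18 in Cy5. With tenofovir it was -1.14 to 0.33 in Cy3 and -1.69 to -0.72 in Cy5. The positive-control animals had Cy3 only, at -0.63 to 0.24. After loess the dye effect of Cyp17a1 averaged over the antiviral animals was near 0, and on the pool arrays it was -0.13. That average joins opposite differences. The means in Cy3 and Cy5 were -0.23 and -0.44 with adefovir, and -0.69 and -0.48 with tenofovir. Adefovir minus tenofovir was thus 0.45 with Cy3 only and 0.04 with Cy5 only.

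Cyp17a1 also varied within groups more than most probes. Its SD within groups, pooled over the 3 treatments, was 0.379 on the log2 scale. That was the 8th highest of 120 probes, whose median was 0.169, and the 7th highest of the 67 probes above background on most arrays, whose median was 0.229.

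Nr5a1 was the other member called, in the positive control alone among the comparisons with saline. Its log2 ratios in positive-control animals 1 to 4 were 0.56, 0.02, 0.17 and 0.25, all above 0. The mean was 0.25 ± 0.23 (SD, n = 4) and passed the test (limma, adjusted p = 0.00958). These values follow subtraction of a dye effect of -0.11, estimated in the antiviral animals. Before it the 4 arrays gave 0.44, -0.10, 0.06 and 0.13, and their mean of 0.13 did not pass (limma, adjusted p = 0.112). The treated signal was above background on 1 of 4 arrays and the saline signal on 0 of 4, so no fold is given. On the pool arrays the ratio ran from -0.11 to 0.13. With centring on calibration spots, luciferase spots or the genes Actb, Gapdh and Ppia the value was -0.47, -0.45 and -0.62 and passed as lower (limma, adjusted p = 0.0362, 0.0119 and 0.00157). The median of all probes moved further, and Nr5a1 lay 0.12 above it, the same under each of these scalings by construction. With median centring and no dye correction it was -0.45, where the median of all probes was 0.02 (limma, adjusted p = 0.00167). Without animal 1 it was 0.14 and no longer passed (limma, adjusted p = 0.0639). It also did not pass in 6 further alternatives, that without dye correction among them, at 0.03 to 0.25. In the antiviral groups the mean of Nr5a1 was 0.03 ± 0.04 (SD, n = 5) with adefovir and 0.06 ± 0.08 (SD, n = 5) with tenofovir, and neither passed.

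The remaining members gave ratios near 0, which carry no level where both channels are below background. Star had group means of 0.01 with adefovir, -0.05 with tenofovir and 0.05 in the positive control. Cyp11a1 had means of -0.08, -0.02 and 0.01 in the same order, and Cyp11b2 0.00, 0.03 and -0.03. Cyp21a1 had means of -0.04, 0.00 and 0.11, with single positive-control animals from -0.22 to 0.44. None of these passed the test in any comparison. Their spread between animals was widest in the positive control for Cyp21a1, with an SD of 0.28, and for Cyp11a1, with 0.18.

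**Figure D4:**
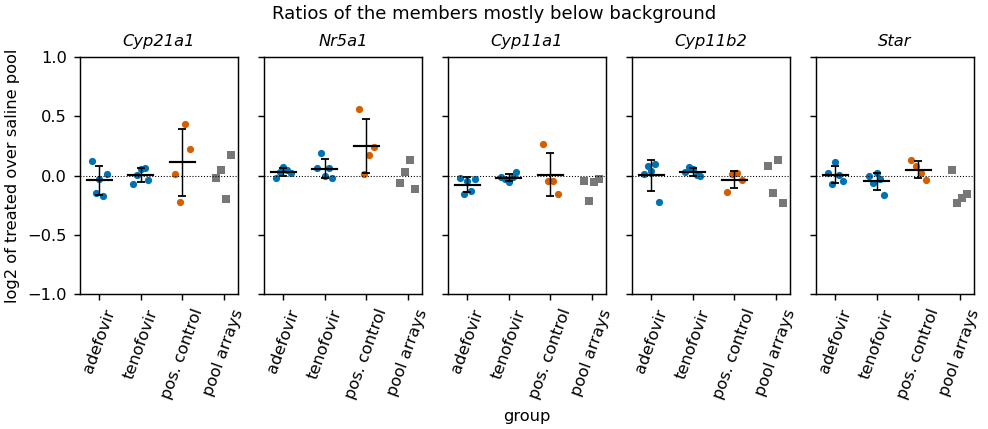
Log2 ratio, treated over saline pool, on the y axis of the 5 named members that were below background on most arrays, by group on the x axis. Circles are animals, black bars the mean with the SD, and grey squares the 4 pool arrays. Group means lie between -0.08 and 0.25, the highest being that of Nr5a1 in the positive control, where single animals reach 0.56 for Nr5a1 and 0.44 for Cyp21a1.

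Genes that act beside the members were taken from lists. No other enzyme or cofactor of steroid hormone synthesis, of 32 listed, had a probe on the array. Of 11 genes that supply cholesterol, 7 were on the array and 5 above background. None of the 7 was called with adefovir, with tenofovir or with both antivirals. Their median was -0.09, -0.01 and -0.05 in those comparisons, against medians over all probes of -0.00, 0.02 and 0.01. In the positive control 1 rose and 1 fell, where 26 of all 120 probes were called higher and 24 lower. With calibration-spot, luciferase-spot and reference-gene centring 1 rose and 5, 5 and 6 fell. Of all probes 16, 18 and 13 were then called higher and 75, 80 and 85 lower. With median centring 1 rose and 0 fell, where 31 of all probes were called higher and 10 lower. Cyp51, the sterol demethylase of cholesterol synthesis, rose by 0.85 on the log2 scale (limma, adjusted p = 0.000790). Scp2, a sterol carrier, fell by 0.80 (limma, adjusted p = 1.53e-06), and its value ran from -0.75 to 0.16 over 6 other scalings. With tenofovir Cyp51 ran from -0.68 to -0.40 over 6 other scalings and was called in 3 of them.

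Of 31 transcription factors and receptors that act on steroidogenic genes or bind steroids, 15 were on the array and 4 above background, namely Nr1h4, Hnf4a, Nr2f2 and Nr5a2. None of the 15 was called against saline under loess, and their median was 0.06 with adefovir, 0.05 with tenofovir and -0.01 in the positive control. Over both antivirals 6 and 7 of 15 were called higher with calibration-spot and luciferase-spot centring, where 28 and 31 of all 120 probes were. In the positive control 14 of 15 were called lower with calibration-spot, luciferase-spot and reference-gene centring, where 75, 80 and 85 of all probes were and the median of all probes lay at -0.59, -0.57 and -0.74. Nr5a2, the liver relative of Nr5a1 that binds like sites, was -0.13 with adefovir, 0.11 with tenofovir and 0.18 in the positive control. It was higher in the positive control than with adefovir by 0.31 (limma, adjusted p = 0.0175), a difference that ran from -0.15 to 0.47 over 6 other scalings.

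Among 25 other liver P450 enzymes that hydroxylate steroids or sterols, 16 were on the array and 12 above background. With adefovir 1 of 16 fell and with tenofovir none passed, where 2 of all 120 probes were called lower in each. In the positive control 8 rose and 3 fell. Under calibration-spot, luciferase-spot and reference-gene centring 10, 10 and 8 rose and 3, 4 and 6 fell. Of all 120 probes 16, 18 and 13 were then called higher and 75, 80 and 85 lower. With median centring 10 rose and 0 fell, where 31 of all probes were called higher and 10 lower. In the deposited series table, which holds 12 of the 16, 1 fell with or without centring and 9 or 7 rose. Of the 51 probes tested there, 14 or 13 were called lower and 16 or 9 higher. Over both antivirals 2 rose and 1 fell, where 5 of all 120 probes were called higher and 5 lower. The one that fell with adefovir was Cyp1a2, an estrogen hydroxylase, at -0.59 (limma, adjusted p = 0.0203), and over both antivirals it was -0.41 (limma, adjusted p = 0.0181), calls kept in 1 and 4 of 6 other scalings. Cyp2a12 and Cyp2a4, which hydroxylate testosterone in mouse liver, rose over both antivirals by 0.18 and 0.32 (limma, adjusted p = 0.0495 for each), calls kept in 1 and 3 of 6 other scalings. Cyp2a4 has close paralogs and its probe may read them. In the positive control Cyp1a2 rose by 2.31 and Cyp2b10, the phenobarbital-inducible testosterone hydroxylase, by 1.61. Cyp8b1, the sterol hydroxylase of cholic acid synthesis, rose by 0.70. Cyp39a1, an oxysterol hydroxylase whose signal was below background on most arrays, was also called higher. Cyp2a12, Cyp2b13, Cyp3a13 and Cyp3a25 were the others that rose. Cyp2c40, Cyp7a1 and Cyp46a1 fell, the last 2 with signals below background on most arrays. Over all 120 probes this comparison called 26 higher and 24 lower.

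The genes whose ratio ran most like that of Cyp17a1 over the 14 animals were sought among the 66 other probes above background on most arrays. The closest were Abcg5, a sterol transporter, with Pearson's r of 0.54, and Cyp3a41a, a female-predominant P450, with 0.44. Cyp2c40 and Scarb1, the receptor for high-density lipoprotein, followed at 0.28 each and Cyp2f2 at 0.26. The median over the 66 was -0.01 and the lowest -0.49, and 1 probe exceeded 0.5. All points share the saline pool and, within an animal, the normalization of its arrays. Abcg5 had means of 0.09, 0.11 and -0.08 with adefovir, tenofovir and the positive control, and Cyp3a41a -0.07, -0.16 and 0.19. In the same order Cyp2c40 had 0.12, 0.00 and -0.68, and Scarb1 0.06, 0.10 and -0.10. Cyp2f2, at -0.03, -0.01 and -1.05, alone had means below 0 in every group, as Cyp17a1 did. With the mean of each group subtracted, r was 0.61 for Abcg5, 0.59 for Cyp3a41a, 0.26 for Cyp2c40, 0.30 for Scarb1 and 0.40 for Cyp2f2. Over the 10 antiviral animals alone r was 0.44 for Abcg5, 0.77 for Cyp3a41a, -0.18 for Cyp2c40, 0.22 for Scarb1 and -0.09 for Cyp2f2. Cyp3a41a has close paralogs that its probe may read.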

How the data were processed

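Liver RNA was labelled by reverse transcription and coupled to Cy3 or Cy5, per the labels' protocols. The authors deposited for each array the median intensity of every spot in both channels with the median and SD of local background, neither subtracted nor normalized, per the file headers. They also deposited a series table of log2 ratios per probe, with normalization and centring not given in the sources used here; its column medians ran from -1.54 to 0.936, and its columns correlated with the loess values at r of 0.677 to 0.965 in the direction treated over saline. That table lacks Cyp17a1 on 8 of 28 arrays, the 4 single positive-control arrays among them.

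Computations were run in R 4.3.3 (limma 3.58.1); plots were drawn in matplotlib 3.10.9 under Python 3.11.15. Background correction was normexp (offset 50), followed by loess normalization within arrays (span 0.3) on gene spots, with zero weight for controls. The 3 spots of a probe were averaged, and so were the 2 arrays of each antiviral animal. The dye effect of each probe, estimated in antiviral animals, was subtracted from positive-control arrays. The linear model had a mean for each group of the 14 animals (11 residual and 3.36 prior degrees of freedom), adjusted over 120 probes. Pool arrays entered no test. The code was tested on simulated data. Replicates are separate animals, per the labels, and arrays limit the precision by their number. Groups came from sample titles. Replicate numbers were not used to pair animals in the main model. Same-numbered animals correlated at -0.44 to 0.37 over all probes, which cannot decide whether they were linked.

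Members and gene lists were chosen with earlier results of these data known. Named genes are the members, list genes that passed or were above background on most arrays, and the 5 genes most like Cyp17a1 by Pearson's r. Alternatives covered background correction, scaling, dye, filter, weights, model and single animals. Platform annotation covers 110 probes; 10 others are counted and not named. Symbols matched a current RefSeq symbol for 115 probes, a synonym for 3 and neither for 2.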

Additional observations from a re-analysis of the deposited data

Results flagged for a closer look

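In 1 of 21 sets of animals, 7 members in 3 treatments, 1 animal stood apart from its group beyond Dixon's limit, a limit that chance passes in about 5% of such sets. Cyp11b2 in adefovir animal 5 was -0.22, while the other 4 animals of the group ran from 0.02 to 0.10. The probe was above background on 0 of 28 arrays.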

How the results depend on the processing

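Cyp17a1 kept its sign against saline under every alternative run. With adefovir it ran from -0.44 to -0.14 (without 1 animal, -0.46 to -0.25) and never passed. For the antivirals, single dye orientations were tried after loess only. Relative to the array median before loess, adefovir in Cy3 ran from -0.16 to 0.55, with 2 of 5 arrays below that median. The sign with adefovir was thus not tried under every combination of dye and centring. The tenofovir value passed with median centring (-0.73), reference-gene centring (-0.69), 1 dye orientation (-0.69 in Cy3, -0.48 in Cy5), array weights (-0.60), the centred series table (-0.49, without 2 animals that it lacks), and a filter on dim probes, groups fitted alone, animals as a random block or no positive-control animals, the last chosen after seeing the data (each -0.58). Without 1 animal it ran from -0.71 to -0.49. Over both antivirals the call was lost with calibration-spot centring (-0.30) and with the series table as it stands (-0.26), and values without 1 animal ran from -0.52 to -0.42. In the positive control it was lost with the dye effect of the pool arrays (-0.43), array weights (-0.58) and median centring without dye correction (-0.17, chosen after seeing the data). Without 1 animal it ran from -0.71 to -0.42. Positive control minus adefovir passed at -0.96, -0.92 and -0.90 with calibration-spot, luciferase-spot and reference-gene centring and turned to 0.11 with median centring without dye correction. Positive control minus tenofovir turned to -0.68, -0.59 and -0.58 with the same 3 centrings and to -0.01 at an offset of 16, passed at 0.56 with median centring without dye correction, and ran from -0.12 to 0.17 without 1 animal. Adefovir minus tenofovir ran from 0.04 to 0.45 and never passed. The series table gave no positive-control value.

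Nr5a1 in the positive control, its saline channel above background on 0 of 4 arrays, was -0.47, -0.45 and -0.62 with those 3 centrings, where the median of all probes was -0.59, -0.57 and -0.74, and -0.45 with median centring without dye correction. Of the 6 members other than Cyp17a1, 1 was called in the positive control; this became 5, 6 and 6 with those 3 centrings (91, 98 and 98 of all 120 probes), 5 with median centring without dye correction (89 of 120), and 0 with median centring, spot medians, Cy3 only, no dye correction, the dye effect of the pool arrays and groups fitted alone, and 0 to 2 without 1 animal. Against adefovir these counts were 5, 5 and 4 (81, 87 and 86 of 120), and against tenofovir 6, 6 and 6 (94, 96 and 92 of 120), where the reported count was 0. They were 5 and 5 with median centring without dye correction (86 and 89 of 120), and 1 against adefovir at an offset of 16 (40 of 120). Without 1 animal they were 0 to 2 and 0 to 1. With Cy5 only, 2 were called with tenofovir (24 of 120) and 2 over both antivirals (42 of 120), and 1 over both antivirals with calibration-spot and with luciferase-spot centring (30 and 35 of 120).

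Animals of the same number were not shown to be linked. With the number as a replicate block, adefovir minus tenofovir was 0.25 (limma, adjusted p = 0.976), positive control minus adefovir -0.22 (0.138) and positive control minus tenofovir 0.02 (0.912). The standard errors of these differences were 0.098, 0.107 and 0.107 with the block, and 0.215, 0.228 and 0.228 without it. The cause of these changes was not tested. Signal over background limits the other 6 members in every group and Cyp17a1 in the positive control. It also limits the treated Cy5 readings of Cyp17a1 in adefovir animal 4 and tenofovir animals 1 and 4.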

Other observations

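In each of the 3 treatments animals 1 and 4 had the 2 lowest log2 ratios of Cyp17a1. They were -0.68 and -0.68 with adefovir, -0.86 and -0.94 with tenofovir and -0.82 and -0.96 in the positive control. The labels give no link between animals of the same number, and over all probes same-numbered animals of different treatments correlated between -0.44 and 0.37. The pattern was noticed after the values were seen, and no test was made of it.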
